A study of Gallus gallus with 16 samples.

Results

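BNC1, ITGB4 and EZR are genes of epithelial surfaces and of the mesothelium, the single layer of flattened cells that covers the organs and fat of the body cavity. They were chosen by name, as 3 of the 17854 loci in the count table, through the Ensembl chicken gene identifiers that the study pairs with their symbols (ENSGALG00000006041 for BNC1, ENSGALG00000002389 for ITGB4 and ENSGALG00000013742 for EZR). All 3 come from the study's own list of genes that differed between these birds. The difference between the lines therefore chose them, and it is given here as a description. Where a fit over all loci called a member, the call describes the same difference and is no independent test of it.

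The samples were abdominal fat of 4 high-growth (HG) and 4 low-growth (LG) cockerels at 7 weeks of age, from meat-type lines divergently selected on body weight, and the library of each bird was sequenced in 2 lanes. All birds had free access to feed and water, and the lines shared floor pens at the time of sampling. In their first weeks after hatching the lines had been housed apart, with crushed pellets for LG. The line was taken from the sample titles and source names, because the line entry of all 16 samples reads HG. The lines thus differ in body weight, fatness, early housing and early feed form together, which cannot be told apart here. Each count was made from aliquots of abdominal fat, in which fewer cells of a type and less RNA per cell cannot be told apart. How much of the surface layer each aliquot held is not given. The table gives 1 estimated count per gene and line over the 4 birds, with a model variance, and no value of a single bird, so variation from bird to bird could not be examined and the groups cannot be said to overlap or not.

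Basonuclin 1, the product of BNC1, is a zinc finger protein of the nucleus, known from basal keratinocytes, germ cells and mesothelial cells, so that the gene marks a surface layer without coding for a surface protein. Integrin beta 4, from ITGB4, pairs with integrin alpha 6 in hemidesmosomes, where it binds laminin outside the cell and plectin and dystonin inside it. Ezrin, from EZR, links the actin cortex to membrane proteins and is abundant in microvilli, which mesothelial cells carry on their free face. It belongs with radixin and moesin to the ERM family. In visceral fat of mammals the mesothelium is the outermost layer, over a stroma of adipocytes, fibroblasts, vessels and leukocytes. No sequence of the 3 genes was used here.

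All 3 genes had lower counts in HG than in LG abdominal fat. BNC1 had an estimated count of 19.8 (model SD 7.51) in HG, against 68.6 (model SD 18.5) in LG. The HG/LG ratio of BNC1 was -1.74 on the log2 scale (95% interval -3.01 to -0.48), a count 3.35-fold higher in LG. The model SD is the square root of the deposited variance. Ratios given for a single gene carry a pseudocount of 1 unless stated, and their intervals come from the deposited variances. The calls, the ranks among loci and the medians used ratios without a pseudocount.

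ITGB4 had a count of 140 (model SD 25.7) in HG, against 345 (model SD 58.3) in LG. The log2 ratio was -1.29 (95% interval -1.99 to -0.59), a count 2.45-fold higher in LG. The counts of the lines lay further apart than the sum of their model SDs, as they did for BNC1 and EZR. The choice of the genes by this difference made that likely, and the share of all loci for which it holds was not computed. It says nothing of overlap between birds.

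EZR had a count of 164 (model SD 28.2) in HG, against 312 (model SD 53.7) in LG. Its log2 ratio was -0.92 (95% interval -1.61 to -0.24), a count 1.90-fold higher in LG, which was the smallest difference of the 3. Counts were not divided by gene length, so they are compared between lines and not between genes.

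**Figure D1:**
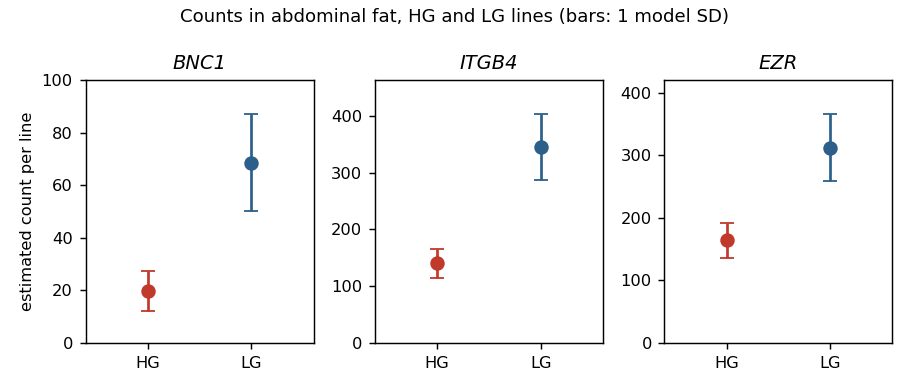
Estimated count (vertical axis, from 0) of BNC1, ITGB4 and EZR in HG (left) and LG (right) abdominal fat, 1 value per line over 4 birds, with bars of 1 model SD from the deposited variance. The HG point is below the LG point in each panel, 19.8 against 68.6 for BNC1, 140 against 345 for ITGB4 and 164 against 312 for EZR.

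The order of the 3 ratios was not resolved. The log2 ratio of ITGB4 lay below that of EZR by a difference of -0.37 (95% interval -1.35 to 0.61). That of BNC1 differed from that of EZR by -0.82 (95% interval -2.26 to 0.62) and from that of ITGB4 by -0.45 (95% interval -1.90 to 1.00). Each interval includes 0, and no test was made of these differences. The 3 genes shared a direction, which their choice as genes of the LG side had fixed.

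The scaling between the lines bears on each ratio. Over the 10484 loci tested the median log2 HG/LG ratio was 0.26, and the totals of both columns stood in a log2 ratio of 0.39. Relative to the median locus the log2 ratio was -2.00 for BNC1, -1.55 for ITGB4 and -1.18 for EZR. Per 1000000 counts of a column, BNC1 had 4.48 in HG and 20.4 in LG, ITGB4 had 31.7 in HG and 102 in LG, and EZR had 37.1 in HG and 92.7 in LG. Both scalings therefore widened the HG deficit of all 3 genes.

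All 3 genes were among the loci tested, whose counts reached 10 or more in either line, were above 0 in both and were marked OK in both. A locus passed when the log ratio over its standard error, from the deposited variances, gave an adjusted p (Benjamini-Hochberg) no greater than 0.05 and the fold was 1.2 or more. With the counts as deposited, ITGB4 alone of the 3 passed as lower in HG, where 0.858% of all loci tested passed in that direction. With ratios taken relative to the median locus (centring), ITGB4 and EZR passed, against 1.19% of all loci. BNC1 passed under neither, although its ratio was the lowest of the 3. These calls come from the contrast that chose the genes and support nothing. If the deposited variance is taken to be that of single birds and divided by 4, all 3 passed, but 4.87% of all loci then passed as lower in HG and 22.2% as higher.

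Lower ratios than those of these genes were uncommon in the table, which their choice as differing genes of the LG side made likely. Of the 10484 loci tested, 226 (2.16%) had a lower HG/LG ratio than BNC1, 320 (3.05%) a lower ratio than ITGB4 and 457 (4.36%) a lower ratio than EZR. Counts at least 2-fold lower in HG were found at 418 loci (3.99%), and BNC1 and ITGB4 are 2 of them.

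**Figure D2:**
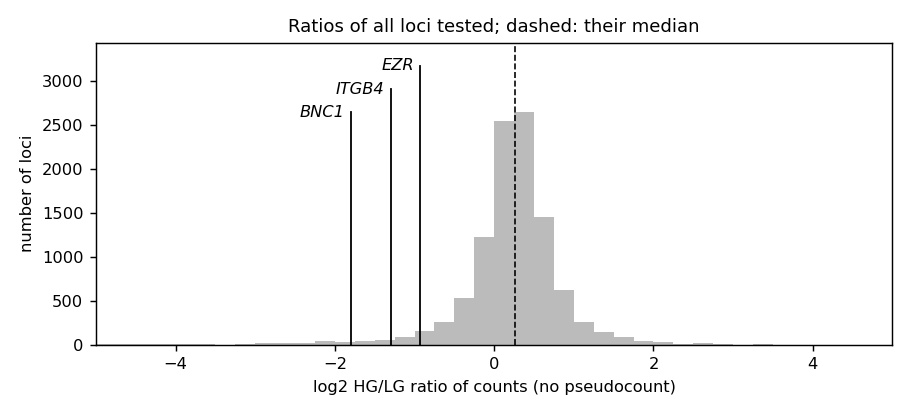
Number of loci (vertical axis) by log2 HG/LG ratio of the deposited counts without pseudocount (horizontal axis, from -5 to 5) over the 10484 loci tested. The solid lines mark BNC1 at -1.79, ITGB4 at -1.30 and EZR at -0.93, all in the lower tail, and the dashed line marks the median of 0.26.

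The model SDs of the 3 genes were close to those of other loci of their size. Over all loci the model SD closely followed the count. This closeness therefore gives no measure of how the 3 genes varied between birds. In HG the model SD was 37.9% of the count for BNC1, 18.3% for ITGB4 and 17.2% for EZR. In LG it was 26.9% for BNC1, 16.9% for ITGB4 and 17.2% for EZR. The median over the 437 loci with HG counts within 0.2 log2 units of that of BNC1 was 37.2%, and over the 750 loci near its LG count it was 27.1%. For ITGB4 the medians at like counts were 18.5% in HG and 16.5% in LG, and for EZR they were 17.3% in HG and 16.9% in LG. The wide interval of BNC1 thus went with its low counts. For all 3 genes the isoform part of the variance was 0 in both lines, so that the whole variance was the part that the model assigns to spread between replicates. In HG the whole variance was that part at 6743 of the 10484 loci tested, so this does not set the 3 genes apart. The variance of BNC1 was 2.85 times its count in HG and 4.97 times in LG. For ITGB4 these multiples were 4.70 in HG and 9.86 in LG, and for EZR they were 4.84 in HG and 9.25 in LG. In counts that were not rescaled, counting error alone would give a variance equal to the count. The column totals lie far below the mapped reads that the paper gives for each bird, and the scaling is not given. These multiples are therefore no measure of excess over counting error.

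**Figure D3:**
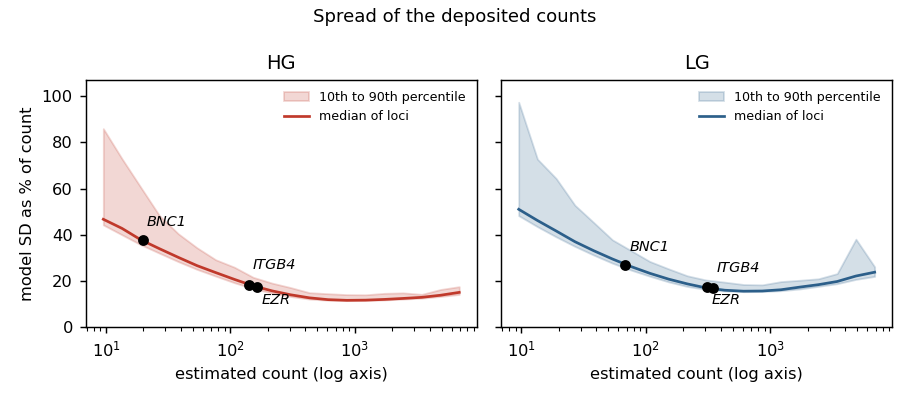
Model SD as a percentage of the count (vertical axis) against the estimated count (log axis) in HG (left) and LG (right). The line is the median and the band the 10th to 90th percentile of the loci tested, in bins of count, and the black points are BNC1, ITGB4 and EZR, which lie close to the median in both lines.

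The genes that work with these proteins were read from lists of mesothelial markers, hemidesmosome and basement membrane components, ERM proteins with their partners, epithelial junction genes and integrin subunits. A listed gene could be found only where the first 1998 rows of the study's list of differing genes gave its symbol. These covered 1420 of the loci with a row, and genes further down that list were not read. Of the 99 genes in these lists, 23 were named there. Only 17 of these had a count row, and each of the 17 was tested. All of them had been selected by the study on these birds, so their directions are not independent evidence. With the counts as deposited none passed as lower in HG and 2 passed as higher, where 0.858% and 2.07% of all loci did. After centring 2 passed in each direction, against 1.19% of all loci as lower and 0.992% as higher. Among the 1364 tested loci with a symbol, from which alone these genes could come, 0.587% passed as lower and 12.6% as higher as deposited, and 1.69% as lower and 6.09% as higher after centring. The 2 of 17 that passed as higher as deposited are 11.8%, a share near that background. The median log2 ratio of the 17 was -0.20, against 0.26 over all loci tested.

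Of the 18 mesothelial markers, 5 were named in the part of the study's list used here. Only 2 of these had a row, and neither passed before or after centring. WT1, a transcription factor of the mesothelium and its precursors, had a count of 49.9 (model SD 21.8) in HG and 96.1 (model SD 26.8) in LG, and its log2 ratio was -0.93 (95% interval -2.37 to 0.51). ANXA8, an annexin that binds phospholipids, had estimated counts of 117 in HG fat and 160 in LG fat (log2 ratio -0.44, 95% interval -1.23 to 0.35). Both intervals include 0. The mesothelial markers that would define the layer, MSLN, UPK3B and the simple keratins among them, were not read here, so whether the 3 genes came from mesothelial cells was not tested.

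Of the 13 hemidesmosome and basement membrane genes, 2 had a row, and neither passed before or after centring. DST, the dystonin that ties hemidesmosomes to keratin filaments in its epithelial form and has other forms in muscle and nerve, had estimated counts of 3322 in HG fat and 1870 in LG fat (log2 ratio 0.83, 95% interval 0.15 to 1.51). The count does not separate these forms. COL7A1, the collagen of anchoring fibrils, had estimated counts of 32.3 in HG fat and 44.7 in LG fat (log2 ratio -0.45, 95% interval -1.67 to 0.76). The binding partner of ITGB4, ITGA6, was not read here. ITGB4 and DST thus had ratios on either side of the median locus.

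Among the other integrins, ITGB2, the beta subunit of leukocytes, was the only other beta subunit of the list with a row. It had estimated counts of 655 in HG fat and 750 in LG fat (log2 ratio -0.20, 95% interval -0.75 to 0.36). Of the 12 alpha subunits 4 had a row. ITGA11, a collagen receptor subunit of fibroblasts, had estimated counts of 898 in HG fat and 246 in LG fat (log2 ratio 1.87, 95% interval 1.27 to 2.46). ITGAV, which pairs with several beta subunits to bind vitronectin and fibronectin, had a ratio of 1.77 (95% interval 1.21 to 2.32). Both passed as higher in HG before and after centring. ITGA9 had a ratio of 0.91 (95% interval 0.21 to 1.61) and ITGA8 one of -0.43 (95% interval -1.23 to 0.37), and neither passed.

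Of the 16 ERM partner genes, 3 had a row and none passed before or after centring. RDX, the ERM relative of ezrin, had estimated counts of 1255 in HG fat and 1832 in LG fat (log2 ratio -0.55, 95% interval -1.13 to 0.04). SLK, a kinase that phosphorylates ERM proteins, had estimated counts of 425 in HG fat and 245 in LG fat (log2 ratio 0.79, 95% interval 0.19 to 1.40). Of the 3 genes with a row, 1 had the lower count in HG, as EZR did, and 2 had the higher count in HG.

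Of the 37 epithelial junction genes and regulators, 5 had a row. DSP, the desmoplakin that anchors keratin filaments at desmosomes, had counts of 83.1 (model SD 19.0) in HG and 205 (model SD 39.3) in LG. Its log2 ratio was -1.30 (95% interval -2.13 to -0.46), or -1.56 relative to the median locus. KLF5, a transcription factor of epithelia and of early adipocyte differentiation, had estimated counts of 92.4 in HG fat and 214 in LG fat (log2 ratio -1.20, 95% interval -2.02 to -0.39). Before centring neither passed, and after it both passed as lower in HG. For KLF5 the paper reports higher expression in LG fat, both by RNA sequencing of these birds and by quantitative RT-PCR. The sequencing result comes from the same libraries as the counts used here, while the RT-PCR is a separate assay. The paper names no other birds for it, so it is not read here as replication. PPL, the periplakin of keratinising epithelia, had estimated counts of 1868 in HG fat and 2390 in LG fat (log2 ratio -0.36, 95% interval -0.996 to 0.28). SPINT1, an inhibitor of epithelial serine proteases, had estimated counts of 137 in HG fat and 140 in LG fat (log2 ratio -0.03, 95% interval -0.81 to 0.75). JUP, the plakoglobin of desmosomes and adherens junctions, had estimated counts of 270 in HG fat and 136 in LG fat (log2 ratio 0.98, 95% interval -0.55 to 2.52), with a model SD of 45.5% of the count in LG. PPL, SPINT1 and JUP did not pass. The 2 desmosomal proteins DSP and JUP thus had ratios of opposite sign, of which only that of DSP has an interval that leaves out 0.

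**Figure D4:**
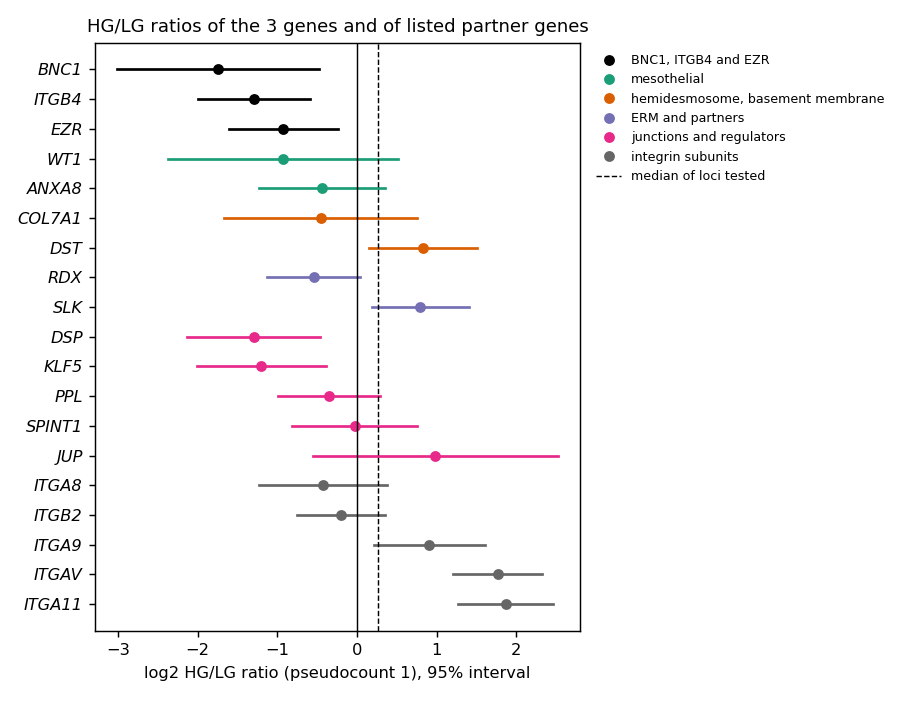
Log2 HG/LG ratio with pseudocount 1 (horizontal axis) of BNC1, ITGB4 and EZR (black, top) and of 16 of the 17 listed genes with a row, coloured by list, with bars for the 95% interval from the deposited variances. The solid line marks 0 and the dashed line the median of 0.26, and DSP and KLF5 sit beside ITGB4 while ITGAV and ITGA11 lie at the far right.

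Genes with the counts most like those of each member were sought by the Euclidean distance in log2(count + 1) over the 2 lines, among tested loci with a symbol. With 2 values per gene this finds a like level in both lines and nothing more. BCAT1, the cytosolic branched-chain aminotransferase, was nearest to both ITGB4 (distance 0.21) and EZR (distance 0.11), with 162 counts in HG fat and 338 in LG fat. It passed as lower in HG when centred, though not as deposited. EZR was the next nearest to ITGB4 (distance 0.27), followed by AGTR1, the angiotensin II receptor (distance 0.31), and MST1 (distance 0.40). Nearest to EZR after BCAT1 were MST1 (distance 0.14), C3AR1, the receptor of the complement fragment C3a (distance 0.20), and PARP12 (distance 0.21). Nearest to BNC1 was C7ORF23 (distance 0.24), with 22.2 counts in HG fat and 60.3 in LG fat, followed by TC2N (distance 0.42), APOLD1 (distance 0.43) and STOML3 (distance 0.48). Within a distance of 0.5 lay 22 loci for BNC1, 15 for ITGB4 and 44 for EZR, with or without a symbol.

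Markers of the other cell types of the fat pad were read beside the 3 genes. Again this was possible only where the part of the study's list used here named them and the identifier had a row. Summed over the members with a row, adipocyte markers (3 of 10) had estimated counts of 2222 in HG fat and 1161 in LG fat, endothelial markers (3 of 10) 5307 in HG and 3079 in LG, fibroblast markers (3 of 8) 10734 in HG and 6720 in LG, and leukocyte markers (3 of 8) 3087 in HG and 2285 in LG. The adipocyte, endothelial and fibroblast markers with counts were each higher in HG, opposite to BNC1, ITGB4 and EZR. Most loci leaned the same way as these markers, with a median log2 ratio of 0.26 over all loci tested. Among tested loci with a symbol, from which the markers came, 12.6% passed as higher in HG and 0.587% as lower. The shared direction of these markers is therefore no result about their cell types. Of the leukocyte markers only CSF1R was higher in HG (log2 ratio 0.73), while CD3E (-0.22) and ITGB2 (-0.20) had the lower counts in HG, and the log2 ratio of the leukocyte sum was 0.43, close to the 0.39 of the column totals. DGAT2 was listed at 0 in both lines and added nothing to the adipocyte sum. The paper reports DGAT2 as higher in HG fat of these birds. Its row here therefore cannot be read as absence of the transcript. The most counted gene was PPARG for adipocytes, CDH5 for endothelium, DCN for fibroblasts and CSF1R for leukocytes. Of these 4 lists PPARG passed as higher in HG before centring and not after it, FAP, a protease of activated fibroblasts, passed both ways, and no other gene passed.

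Of tissues that could be carried along with the fat, skeletal muscle markers (5 of 8) had summed counts of 1319 in HG and 527 in LG. ACTA1, the most counted, made up most of both sums, with 1144 in HG and 526 in LG. The other muscle markers with counts were at or near 0 in LG, and the median log2 ratio of the 3 tested was 5.90. MYBPC1 was listed at 0 in LG and TNNC2 at 0 in both lines. TNNC2 added nothing to the muscle sum. In the paper TNNC2 is reported as higher in HG fat, so its row too cannot be read as absence. SERPINC1, the 1 hepatocyte marker of 10 with a row, had estimated counts of 4.40 in HG fat and 64.7 in LG fat. The paper reports other markers of this list, among them ALB, FGA, FGB, FGG, TTR and APOH, as higher in LG fat of these birds. Those genes were not among the symbols read here. SPTB, the 1 red blood cell marker of 8 with a row, had 43.0 in HG and 80.9 in LG. None of those tested passed before or after centring. The SERPINC1 and SPTB counts were lower in HG, as those of BNC1, ITGB4 and EZR were, and their part in the result was not tested. No marker of the lung and air sac or smooth muscle lists had a row.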

How the data were processed

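The authors prepared stranded mRNA libraries of abdominal fat from 4 HG and 4 LG birds and sequenced them in 2 lanes. Per the labels they used CASAVA, TopHat 1.3.3, Bowtie 0.12.7 and Cuffdiff 2.0.2, and the Methods add trimming and mapping to the Galgal4 genome. The deposited values are estimated counts per locus and line, pooled over birds and lanes, each with a model variance. Their scaling between the lines, and whether the variance is that of 1 library or of a mean, are not given in the sources used here. Column totals were 4421254 in HG and 3365950 in LG, and 3659 of 17854 loci were at 0 in both.

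The natural log of the HG/LG ratio, without a pseudocount, was divided by its delta-method standard error. It was set against a normal distribution (two-sided), with Benjamini-Hochberg adjustment over 10484 loci. Gene ratios printed relative to the median locus subtract a median without pseudocount from a ratio with pseudocount 1. With 1 value per line no exact test across birds was possible, and single p values are not given. Counts were kept unrounded, because no count model was fitted. The test was also run on simulated counts whose spread and variance followed the same trend with count. That run therefore cannot show whether the deposited variances or the scaling between lines are right. Symbols came from the first 1998 rows of the study's list of differing genes, of which 1511 identifiers had a row. Its fold changes and p-values were not used. Named genes were the 3 members, of each surface list those that passed, the 2 highest, the 2 lowest and the most counted, of each other list the most counted and those that passed, and the 4 nearest loci per member. The members and lists were chosen with earlier results of these data known. The values of 1 ERM partner that this rule would name are not reported here. Alternatives were centring, column totals, other count and fold minimums, other pseudocounts and the variance divided by 4. Python 3.11.15, numpy 2.4.6, pandas 2.3.3, scipy 1.17.1 and matplotlib 3.10.9 were used.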

Additional observations from a re-analysis of the deposited data

How the results depend on the processing

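The HG deficit of BNC1, ITGB4 and EZR kept its sign under every scaling and pseudocount tried, which was fixed in advance. Both scalings lowered ratios that were already negative, and a pseudocount added to both counts cannot reverse a sign. With column totals the log2 ratio was -1.68 for ITGB4 and -1.32 for EZR, a move of more than 1 standard error. ITGB4 passed as lower in HG under all 6 alternatives of the test, EZR under 3 and BNC1 under 2 (column totals and the variance divided by 4). The alternatives reuse the counts and variances of the contrast that chose the genes, so these calls support nothing. Loci passing as higher in HG numbered 104 after centring, 73 with column totals and 2330 with the variance divided by 4, against 217 as reported. Those passing as lower numbered 163 with column totals and 511 with the variance divided by 4, against 90 as reported and 125 after centring. With no count minimum, a minimum of 50 and a 2-fold minimum, 83, 91 and 89 loci passed as lower. In the same order, 200, 253 and 190 passed as higher. The count minimums also changed how many loci were tested. Junction genes passing as lower were 2 after centring, with column totals and with the variance divided by 4, in place of 0. With the variance divided by 4, 1 mesothelial marker and 1 ERM partner also passed as lower, in place of 0 each. Passing as higher were 1 hemidesmosome gene, 2 ERM partners and 1 junction gene, in place of 0 each, and 3 integrin alpha subunits in place of 2. In that setting 4.87% of all loci tested passed as lower and 22.2% as higher. The share among loci with a symbol was not computed for it, so these counts are no result about the listed genes. The intervals do not cover the scaling between lines. No paired analysis was possible because the count columns carry no bird number, and leaving out birds was not possible for the same reason. The count of BNC1 in HG was small enough that its ratio was -1.40 with a pseudocount of 10.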

Other observations

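Genes that lie near the 3 genes on the chicken map were read for comparison, chosen by place and named after their values were seen. Only GALK1 lay next to its member, and the others named here lay several places away. Gene order came from the RefSeq annotation of the GRCg7b assembly, which is not the build of the counts, and 10 protein-coding genes on either side were searched. Beside ITGB4, GALK1, the galactokinase, had estimated counts of 78.9 in HG fat and 75.2 in LG fat (log2 ratio 0.07). WBP2, a WW domain binding protein, had estimated counts of 525 in HG fat and 234 in LG fat (log2 ratio 1.16), and passed as higher in HG with the counts as deposited. Near EZR, FUCA2, a secreted fucosidase, had estimated counts of 553 in HG fat and 292 in LG fat (log2 ratio 0.92), and did not pass. Near BNC1, STARD5, a sterol-binding protein, had estimated counts of 23.5 in HG fat and 26.6 in LG fat (log2 ratio -0.17), and did not pass. All 4 had been selected by the study on these birds. The other neighbours were not read, since the part of the study's list used here gave no symbol with a row for them.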
